A study of Homo sapiens with 6 samples.

Results

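The 30 genes described here make or handle sterols and fatty acids. They were taken as the rows of the deposited expression table whose gene name is on a fixed list, and all 30 were found among 38170 annotated features. The list holds 14 enzymes of sterol synthesis, 9 enzymes of fatty acid synthesis, 5 regulators of both and 2 proteins of sterol transport. RNA came from A549, an established human lung adenocarcinoma line, in 6 libraries. In 3 of them the cells overexpressed LOC401312, a long non-coding RNA, delivered with piggyBac, a transposon used to integrate DNA into chromosomes. In the other 3 libraries A549 cells had been transfected with empty vector. The labels do not say whether the lines were pools or single clones.

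Cells make cholesterol from acetyl-CoA through the mevalonate pathway, which runs by way of isoprenoids and squalene to lanosterol and then to cholesterol. Fatty acids are built from the same acetyl-CoA, then lengthened and desaturated. Genes of both branches are switched on by the SREBP transcription factors, encoded by SREBF1 and SREBF2. These are held in the endoplasmic reticulum by SCAP and the INSIG proteins while sterol is plentiful, and are released to the nucleus when it falls. Excess sterol instead activates the LXR receptors, which induce exporters such as ABCA1.

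The libraries held 65823845 to 70202062 counts for LOC401312 and 60971105 to 73994619 counts for vector, and 19620 features had enough counts to be tested. The STEAP1B entry, whose span covers LOC401312, held 94628, 92527 and 90297 counts in the LOC401312 libraries and 9, 11 and 23 in the vector libraries. For LOC401312 replicates 2 and 3 the genotype field reads LOC401313 and LOC401314 while the title reads LOC401312, and groups were taken from the titles. Of 7 epithelial and A549 markers, all were counted in every library, with a summed level of 14630 to 15200 CPM (counts scaled to a common library size with TMM factors) in LOC401312 and 15380 to 16440 CPM in vector. At an adjusted p under 0.05 (edgeR), CDH1 and KRT19 were higher in LOC401312 (log2 change 0.48 and 0.26). AKR1B10, AKR1C1 and ALDH1A1 were lower (-0.45, -0.53 and -0.12), and KRT8 and KRT18 did not pass. Libraries also carried transcripts used as markers of other cells. The 8 placental markers summed to 2.5 CPM in the lowest and 96.0 CPM in the highest LOC401312 library, against 2.03 to 2.56 CPM in vector, and LOC401312 replicates 2 and 3 were the high ones. The 7 urothelial markers summed to 3.01 to 3.72 CPM in LOC401312 and 8.99 to 12.7 CPM in vector. KRT13, PSCA and ADIRF averaged 0.02, 0.69 and 0.05 CPM in LOC401312 and 4.48, 2.53 and 1.295 CPM in vector. The uroplakins UPK1A, UPK1B and UPK2 averaged 0.46, 1.755 and 0.48 CPM in LOC401312 and 0.63, 1.88 and 0.54 CPM in vector, with overlapping groups. UPK3A had 4 counts in vector replicate 1 and 0 in every other library. The 4 fibroblast markers summed to 16.5 to 18.0 CPM in LOC401312 and 25.9 to 47.4 CPM in vector, the 4 blood markers to 11.4 to 13.5 CPM and 10.7 to 15.7 CPM, and the 3 endothelial markers to 1.01 to 2.04 CPM and 1.25 to 1.51 CPM. Of 3 adipocyte or liver markers the sum was 5.45 to 6.95 CPM in LOC401312 and 3.03 to 4.31 CPM in vector. Most of it was PLIN4 (mean 5.895 and 3.08 CPM), while PLIN1 had 0.42 and 0.53 CPM. Among fibroblast markers, COL1A1 and COL3A1 averaged 12.1 and 3.16 CPM in LOC401312 and 23.4 and 10.6 CPM in vector. DCN was at 1.385 and 1.41 CPM (LOC401312 and vector), and PDGFRB at 0.71 and 0.34 CPM. No marker was at 0 in all 6 libraries, while CD3E was at 0 in all LOC401312 libraries and in vector replicates 2 and 3. Vector replicate 1 had 55 counts of CD3E and 256 of PTPRC, against at most 8 of PTPRC in any other library. Most of the blood sum was CD14, at a mean of 12.3 CPM in LOC401312 and 11.6 CPM in vector. Whether these transcripts came from other cells or from A549 was not tested. The part of any such cells in the results below was not tested either, apart from fits that leave libraries out.

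Most of these 30 genes changed little. The sterol transport protein STARD4 had the largest change and rose 1.42-fold in LOC401312 over vector. MVD, a mevalonate pathway enzyme, and ACSS2, which makes acetyl-CoA from acetate, rose 1.22-fold (log2 change 0.28) and by 0.26 on the log2 scale. SCD, the desaturase that makes oleic acid, fell to 0.919 of its vector level. The other 26 genes did not pass an adjusted p of 0.05 in edgeR's quasi-likelihood test with Benjamini-Hochberg adjustment over all features tested. The 3 rises and 1 fall are 13.3% of the 30, against 8.72% of all 19620 features (4.13% higher and 4.58% lower). Among 9240 features at or above the lowest mean level of the 30, which was 12.7 CPM, 13.9% were called (5.93% higher and 8% lower), so the share among the 30 was near that background. In RNA from whole cultures, fewer expressing cells and less RNA per cell cannot be told apart. With limma on the deposited FPKM values, which lay higher in LOC401312 as a whole, 8 of the 30 were called higher and 0 lower, against 14.7% and 2.54% of features, and 85.3% of all calls were higher against 47.4% in edgeR. The median log2 change of the 30 was 0.00, as it was over all features tested (-0.00). The median size of change, whatever its sign, was 0.0668 for the 30 and 0.0893 for features at or above 12.7 CPM.

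**Figure D1:**
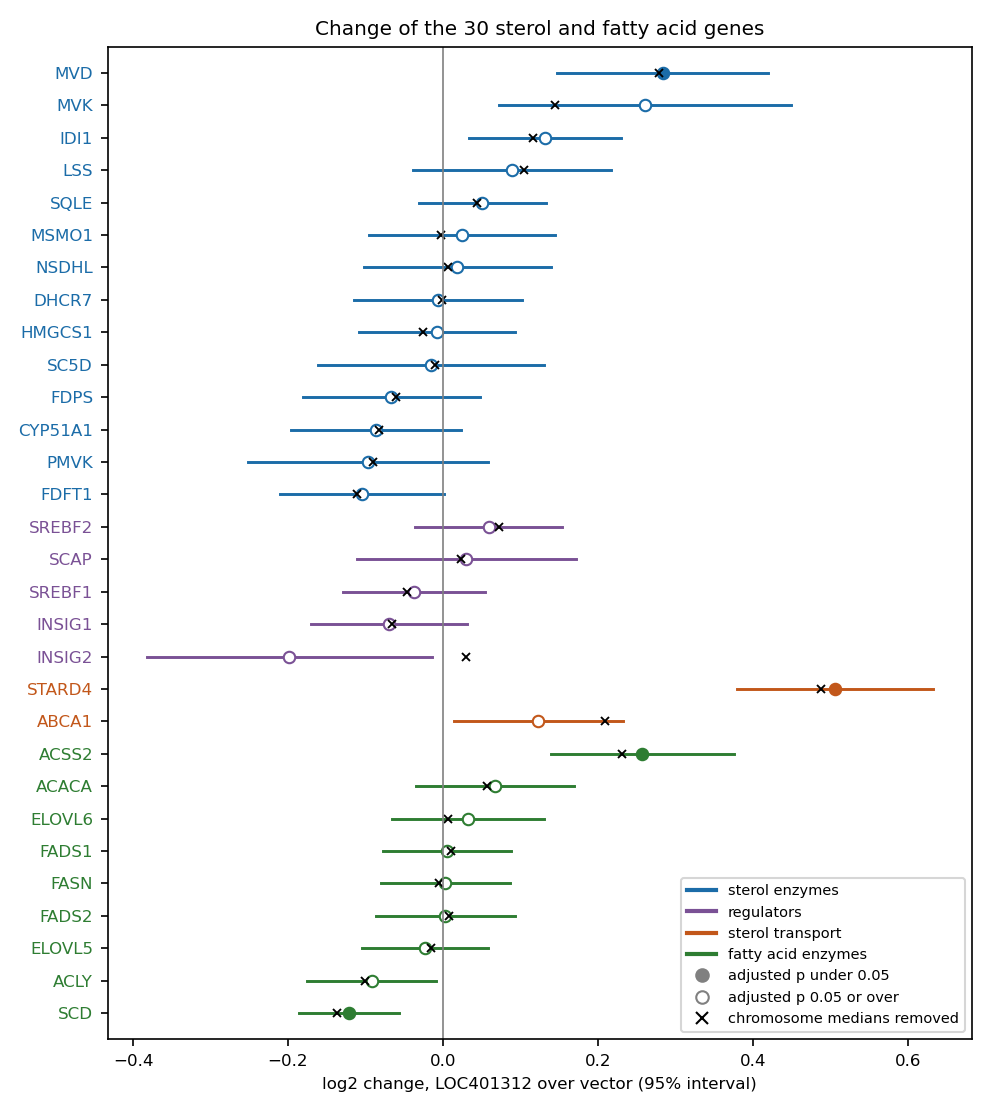
Log2 change of each of the 30 genes, LOC401312 over vector (x axis), with 95% intervals as lines and genes down the page by branch. Filled circles passed the threshold, open circles did not, and crosses show the change with chromosome medians removed. STARD4 at 0.51 lies furthest from 0, and 21 of 30 intervals include 0.

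STARD4 carries cholesterol between membranes through the cytosol. It lies on chromosome 5 at 111496033 to 111512590 in GRCh38, on the minus strand (ENSG00000164211). Its level was 62.8, 62.2 and 59.7 CPM in the LOC401312 libraries and 45.5, 40.0 and 44.6 CPM in the vector libraries. The lowest LOC401312 value exceeded the highest vector value. The log2 change was 0.51 (SE 0.06, 95% interval 0.38 to 0.63, adjusted p = 0.000554, edgeR), and 2.02% of the 9240 features at or above 12.7 CPM changed by more in size. The call held without any single library, with log2 changes of 0.45 to 0.54 and an adjusted p of at most 0.00689. Without LOC401312 replicates 2 and 3, which carry the placental markers, the change was 0.54 (adjusted p = 0.0564). The antisense gene STARD4-AS1 overlaps STARD4 on the other strand, and since the strand setting of the counting is not given, their reads could not be told apart. STARD4-AS1 also rose, with 3.33, 3.33 and 4.14 CPM in LOC401312 and 2.48, 1.94 and 2.16 CPM in vector (log2 change 0.71, adjusted p = 0.0428, edgeR), at a far lower level. It was named after its values were seen.

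MVD, diphosphomevalonate decarboxylase, completes the isoprenoid building block of the mevalonate pathway. It lies on chromosome 16 at 88651935 to 88663161, on the minus strand (ENSG00000167508). It had 45.5, 46.3 and 42.6 CPM in LOC401312 and 34.3, 37.5 and 38.7 CPM in vector, without overlap between the groups. The log2 change was 0.28 (SE 0.06, 95% interval 0.15 to 0.42, adjusted p = 0.0178, edgeR). The call ended without LOC401312 replicate 1 (adjusted p = 0.0748) or replicate 2 (0.0924).

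ACSS2, on chromosome 20 at 34872146 to 34927962, plus strand (ENSG00000131069), is the cytosolic and nuclear acetyl-CoA synthetase that activates acetate. It had 42.8, 44.0 and 42.2 CPM in LOC401312 and 36.4, 37.2 and 34.4 CPM in vector, again without overlap. The log2 change was 0.26 (SE 0.05, 95% interval 0.14 to 0.38, adjusted p = 0.0144, edgeR). It lost its call without LOC401312 replicate 1 (adjusted p = 0.0563), LOC401312 replicate 2 (0.0793) or vector replicate 3 (0.0594). GGT7 overlaps it on the other strand and had a log2 change of -0.04 (adjusted p = 0.899).

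SCD, stearoyl-CoA desaturase, lies on chromosome 10 at 100347233 to 100364826, on the plus strand (ENSG00000099194). It was the most abundant of the 30 genes, with 2745, 2682 and 2725 CPM in LOC401312 and 2925, 3020 and 2922 CPM in vector. The LOC401312 libraries lay below all vector libraries, though the gap was small. The log2 change was -0.12 (SE 0.03, 95% interval -0.19 to -0.06, adjusted p = 0.0286, edgeR). The deposited FPKM, which lay higher in LOC401312 as a whole, gave 0.00. After rescaling to a level median gene they gave -0.10 (adjusted p = 0.073, limma). The call ended without any single library but vector replicate 1, with an adjusted p of up to 0.133 without LOC401312 replicate 2; it was 0.078 and 0.091 without LOC401312 replicates 1 and 3, and 0.0701 and 0.0667 without vector replicates 2 and 3.

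**Figure D2:**
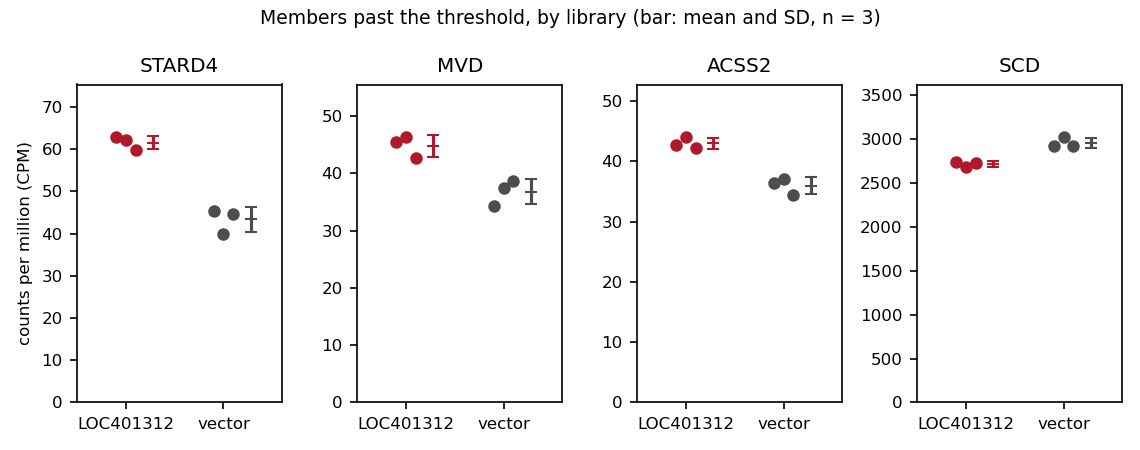
Scaled counts (CPM, y axis from 0) of STARD4, MVD, ACSS2 and SCD in each library, LOC401312 left and vector right, with the mean and SD of 3 libraries as bars. The groups do not overlap in any of the 4 panels, and SCD is lower in LOC401312 in CPM. Its log2 change in the deposited FPKM values was 0.00, and -0.10 after these were rescaled to a level median gene.

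The 250 bases before the RefSeq start sites of these 4 genes (GRCh38.p14) are shown because SREBP binds with partner factors near such starts. NF-Y, a partner, binds CCAAT, and the classical sterol element reads TCACNCCAC. Both were searched on both strands, and capitals mark every match. ACSS2 has 2 RefSeq start sites here. Both of its windows lie inside the gene span given above, so the bases before that span were not searched. SREBF2 is added as the only gene with a TCACNCCAC match among the 27 of the set that had a window. The windows are chr5:111512536-111512785 (minus strand) for STARD4, chr16:88663092-88663341 (minus) for MVD, chr20:34874739-34874988 and chr20:34876362-34876611 (plus) for ACSS2, chr10:100346983-100347232 (plus) for SCD and chr22:41832855-41833104 (plus) for SREBF2.
STARD4: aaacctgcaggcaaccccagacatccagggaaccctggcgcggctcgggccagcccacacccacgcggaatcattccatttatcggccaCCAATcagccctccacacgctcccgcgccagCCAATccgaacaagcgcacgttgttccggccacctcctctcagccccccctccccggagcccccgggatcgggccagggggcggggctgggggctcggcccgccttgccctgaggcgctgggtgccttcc
MVD: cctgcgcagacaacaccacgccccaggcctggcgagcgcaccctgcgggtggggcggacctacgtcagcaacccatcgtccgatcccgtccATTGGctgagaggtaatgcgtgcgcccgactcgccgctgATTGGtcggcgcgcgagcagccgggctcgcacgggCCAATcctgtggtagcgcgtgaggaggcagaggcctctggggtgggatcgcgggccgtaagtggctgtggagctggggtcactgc
ACSS2, upstream start: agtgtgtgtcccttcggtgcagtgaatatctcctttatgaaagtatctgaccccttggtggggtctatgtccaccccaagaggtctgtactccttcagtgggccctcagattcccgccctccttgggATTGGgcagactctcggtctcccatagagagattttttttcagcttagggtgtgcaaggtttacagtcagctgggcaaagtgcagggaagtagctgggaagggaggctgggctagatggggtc
ACSS2, downstream start: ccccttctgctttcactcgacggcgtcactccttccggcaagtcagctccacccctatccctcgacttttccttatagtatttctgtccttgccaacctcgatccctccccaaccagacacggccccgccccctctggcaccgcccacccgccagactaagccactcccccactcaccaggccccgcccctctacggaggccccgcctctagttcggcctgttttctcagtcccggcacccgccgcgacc
SCD: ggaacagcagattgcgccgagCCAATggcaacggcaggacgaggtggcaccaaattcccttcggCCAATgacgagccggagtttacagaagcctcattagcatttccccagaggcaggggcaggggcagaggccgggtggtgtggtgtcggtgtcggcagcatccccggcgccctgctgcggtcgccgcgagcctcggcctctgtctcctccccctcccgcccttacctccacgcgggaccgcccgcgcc
SREBF2: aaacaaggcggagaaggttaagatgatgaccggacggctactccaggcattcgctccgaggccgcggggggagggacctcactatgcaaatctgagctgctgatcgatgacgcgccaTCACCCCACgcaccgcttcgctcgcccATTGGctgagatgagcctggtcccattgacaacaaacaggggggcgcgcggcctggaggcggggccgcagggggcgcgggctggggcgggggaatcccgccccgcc

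STARD4 and SCD had 2 CCAAT matches each, MVD had 3, and ACSS2 had 1 before its upstream start and 0 before its downstream start. In STARD4 the matches began 161 and 130 bases before the start. SREBF2 had its TCACNCCAC match 133 bases before the start and a CCAAT match 106 bases before it. Windows were found for 27 of the 30 genes, all but FASN, SQLE and FDFT1. CCAAT was in 22 of their 38 windows, against 32% of all 35116 windows of this length, and TCACNCCAC in 1 of 38, against 0.883% of all. The GC box GGGCGG, the site of SP1, was in 33 of 38, against 42.6% of all. CCAAT windows thus occurred in genes that passed the test and in genes that did not, such as HMGCS1, FDPS and NSDHL. These are matches of letters in a window and say nothing of binding in these cells. The shares of all windows cover genes whether or not they were expressed here, and a background of like expression was not counted.

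Along the sterol branch, 1 of 14 enzymes rose, none fell and 13 did not pass. At an unadjusted p under 0.05 there were 3 higher and 0 lower, and DESeq2 called 3 higher and 0 lower. The branch's median log2 change was 0.01, with a range of -0.10 to 0.28. The early steps held the enzymes with the largest positive values. HMGCS1, which makes HMG-CoA, had 146, 145 and 140 CPM in LOC401312 and 146, 151 and 137 CPM in vector, a log2 change of -0.01 (95% interval -0.11 to 0.09). MVK, which phosphorylates mevalonate, had 36.2, 36.5 and 35.5 CPM in LOC401312 and 25.8, 32.2 and 32.3 CPM in vector. All LOC401312 libraries were above all vector libraries, but vector replicate 1 was well below the other 2, and the change of 0.26 (95% interval 0.07 to 0.45) did not pass (adjusted p = 0.0912, edgeR). MVK lies on chromosome 12, whose 642 genes at 4 CPM or more had a median change of 0.12, and with chromosome medians removed it was at 0.14 (adjusted p = 0.394). MMAB, which overlaps MVK on the other strand at a like level, had a change of 0.09 (adjusted p = 0.603).

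PMVK, the next kinase, had a log2 change of -0.10 (95% interval -0.25 to 0.06). IDI1, which isomerises the building block that MVD makes, had 112, 109 and 109 CPM in LOC401312 and 105, 99.4 and 96.8 CPM in vector. Its groups did not overlap, with a change of 0.13 (95% interval 0.03 to 0.23, adjusted p = 0.102, edgeR). It passed without vector replicate 1 (adjusted p = 0.0361), the library in which it was highest among the vector libraries. FDPS, which joins the building blocks to farnesyl diphosphate, was at -0.07 (95% interval -0.18 to 0.05), and its 6 named pseudogenes together had a mean of 26.8 counts per library, against 10721 for FDPS.

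At the entry to sterols, FDFT1, squalene synthase, had 213, 204 and 195 CPM in LOC401312 and 209, 224 and 226 CPM in vector. The ranges overlapped and the change was -0.10 (95% interval -0.21 to 0.00). SQLE, squalene epoxidase, a rate-limiting step, had 169, 173 and 172 CPM in LOC401312 and 164, 165 and 167 CPM in vector. Its groups did not overlap, yet the change was 0.05 (95% interval -0.03 to 0.13) and did not pass. LSS, which closes the rings to lanosterol, was at 0.09 (95% interval -0.04 to 0.22).

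The later enzymes turn lanosterol into cholesterol. CYP51A1, which takes off the first methyl group, was at -0.09 (95% interval -0.20 to 0.02). MSMO1 and NSDHL, which remove the next methyl groups, were at 0.02 (-0.10 to 0.14) and 0.02 (-0.10 to 0.14). SC5D, which adds a ring double bond, was at -0.02 (-0.16 to 0.13), and DHCR7, which completes cholesterol, at -0.01 (-0.11 to 0.10). All 5 had overlapping groups.

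In fatty acid synthesis, 1 of 9 enzymes rose (ACSS2), 1 fell (SCD) and 7 did not pass, with a median log2 change of 0.00. ACLY, which makes cytosolic acetyl-CoA from citrate, had 923, 895 and 899 CPM in LOC401312 and 943, 1010 and 944 CPM in vector. Its groups did not overlap, and the change of -0.09 (95% interval -0.17 to -0.01) did not pass (adjusted p = 0.171, edgeR). ACSS2 and ACLY, the sources of acetyl-CoA in this list, thus had changes of opposite sign, and the difference between them was not tested. ACACA, acetyl-CoA carboxylase, was at 0.07 (95% interval -0.04 to 0.17). FASN, fatty acid synthase, had 825, 803 and 807 CPM in LOC401312 and 795, 846 and 788 CPM in vector, with overlapping groups and a change of 0.00 (95% interval -0.08 to 0.09).

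Of the enzymes that modify the product, SCD alone passed. The elongases ELOVL5 and ELOVL6 were at -0.02 (95% interval -0.10 to 0.06) and 0.03 (-0.07 to 0.13). FADS1, the delta-5 desaturase, had 731, 688 and 730 CPM in LOC401312 and 707, 730 and 704 CPM in vector, a change of 0.01 (-0.08 to 0.09). FADS2, the delta-6 desaturase, had 1020, 962 and 968 CPM in LOC401312 and 943, 1025 and 977 CPM in vector, a change of 0.00 (-0.09 to 0.09). FADS1 and FADS2 overlap on opposite strands of chromosome 11, so their reads could not be told apart either. SCD was the desaturase that passed the test; whether its change differed from those of FADS1 and FADS2 was not tested.

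The branches did not separate. The median of the sterol enzymes minus that of the fatty acid enzymes was 0.00 on the log2 scale, and it lay between -0.0148 and 0.0138 in the 17 alternative fits. Per library, the sterol median relative to the vector mean of each gene was 0.02, 0.01 and -0.01 in LOC401312 and -0.03, 0.03 and 0.02 in vector. The fatty acid median was 0.03, -0.03 and 0.01 in LOC401312 and -0.01, 0.03 and -0.03 in vector. Both sets of values overlapped between groups, and the shifts within a group were as large as any between them. The 30 genes together took 0.918%, 0.888% and 0.907% of all counts in LOC401312 and 0.910%, 0.928% and 0.901% in vector.

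Levels between genes were compared in the deposited FPKM, a unit meant to divide counts by transcript length and library total. The fatty acid branch was the more abundant, with summed levels of 947, 899 and 911 FPKM in LOC401312 and 915, 892 and 851 FPKM in vector. The 14 sterol enzymes summed to 320, 304 and 298 FPKM in LOC401312 and 288, 280 and 279 FPKM in vector. SCD led with 453 ± 10.8 FPKM in LOC401312 and 452 ± 16.0 FPKM in vector (SD, n = 3 each). ACLY followed with 152 ± 4.65 and 149 ± 5.95 FPKM (LOC401312 and vector), and FADS2, FASN, FADS1 and ELOVL5 came next in both groups. Among sterol enzymes, DHCR7 had 37.9 ± 2.78 FPKM in LOC401312 and 34.9 ± 0.948 FPKM in vector, and FDPS had 36.9 ± 2.19 FPKM in LOC401312 and 35.4 ± 0.507 FPKM in vector, so the order of this pair lies within their spread. SC5D was lowest of the 30, with 2.58 ± 0.102 FPKM in LOC401312 and 2.39 ± 0.170 FPKM in vector. STARD4 stood at rank 23 in LOC401312 (9.46 ± 0.351 FPKM) and at rank 25 in vector (6.11 ± 0.595 FPKM). The deposited FPKM values were shifted upward in LOC401312, with a median log2 change of 0.109 over features averaging 5 FPKM or more, so FPKM sums that are higher there by this much carry the shift.

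**Figure D3:**
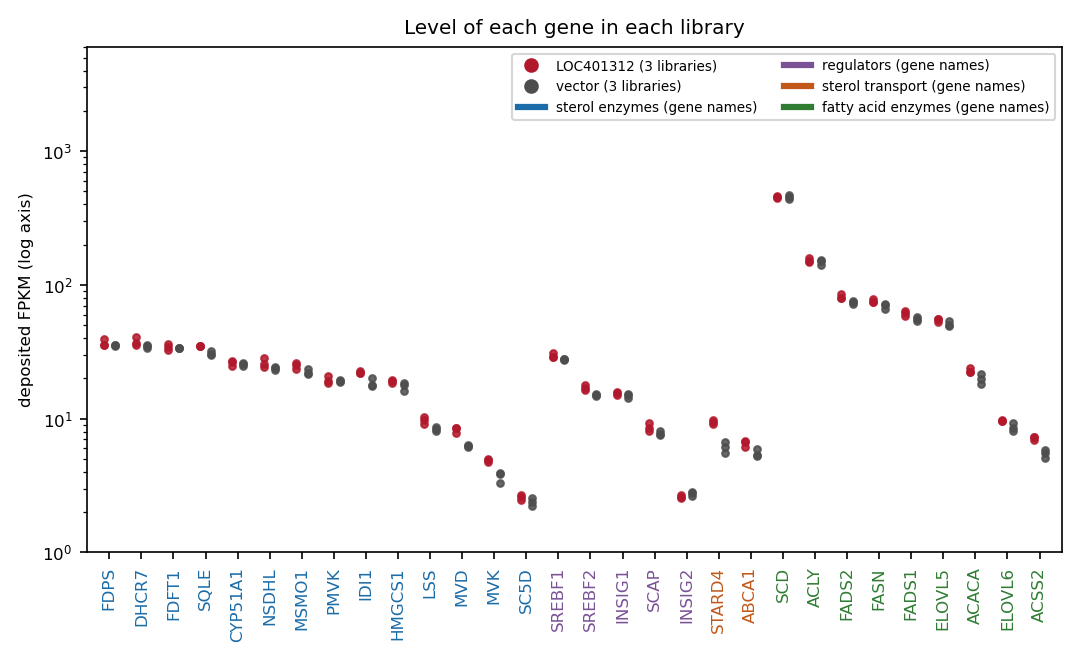
Deposited FPKM of each gene in each library (log y axis), LOC401312 left and vector right within each gene, genes ordered by level within branches that the colour of the gene names marks. SCD at about 450 FPKM and ACLY at about 150 FPKM stand above all others, and SC5D and INSIG2 are lowest.

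None of the 5 regulators passed the edgeR test. At an unadjusted p under 0.05 there was 1 lower and 0 higher, and DESeq2 called 0. SREBF1, whose product mainly drives fatty acid genes, had 288, 273 and 274 CPM in LOC401312 and 275, 294 and 287 CPM in vector, a change of -0.04 (95% interval -0.13 to 0.05). RAI1 overlaps SREBF1 on the other strand, with a mean of 7187.5 counts per library against 18809.5, and their reads could not be told apart. SREBF2, the main driver of sterol genes, had 152, 142 and 148 CPM in LOC401312 and 138, 142 and 145 CPM in vector, a change of 0.06 (-0.04 to 0.15). SCAP, the escort and sterol sensor of the SREBPs, was at 0.03 (-0.11 to 0.17). INSIG1, which retains SCAP and is itself induced by SREBP, had 64.2, 63.1 and 66.3 CPM in LOC401312 and 66.7, 70.0 and 66.4 CPM in vector. Its groups came close without overlapping, with a change of -0.07 (-0.17 to 0.03).

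INSIG2, the second retention protein, had 11.9, 11.8 and 11.7 CPM in LOC401312 and 13.1, 13.3 and 14.3 CPM in vector, without overlap. The change of -0.20 (95% interval -0.38 to -0.01) did not pass (adjusted p = 0.186, edgeR). INSIG2 lies on chromosome 2, where 780 genes at 4 CPM or more had a median change of -0.23 and 342 of them were called lower. With chromosome medians removed INSIG2 was at 0.03 (adjusted p = 0.893), close to the median of its chromosome.

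ABCA1 exports cholesterol to apolipoprotein A1. It had 85.1, 79.9 and 88.2 CPM in LOC401312 and 79.5, 77.3 and 75.8 CPM in vector, without overlap. The change of 0.12 (95% interval 0.01 to 0.23) did not pass (adjusted p = 0.168, edgeR). Its chromosome, 9, had a median of -0.09 over 494 genes, and with chromosome medians removed ABCA1 was at 0.21 and passed (adjusted p = 0.0363). In that fit 4 of the 30 genes were higher and 1 was lower, against 3.48% and 2.62% of all features. STARD4 and ABCA1, the sterol transport pair, had a positive change in all 17 alternative fits, which reuse the same 6 libraries. ABCA1 was called in 3 of them. The sign was not particular to this pair. MVD, IDI1, SQLE, LSS, SREBF2, ACSS2, ACACA and ELOVL6 were also positive in all 17, and MVK in all 16 that held it.

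Groups without overlap were common here. Of the 30 genes, 11 had no overlap between LOC401312 and vector, 36.7% of them, with 7 higher and 4 lower. Over all features tested the share was 27.9%, and over features at or above 12.7 CPM it was 35.2%. The 95% intervals of the 30 genes had a median width of 0.107 on either side, from 0.0646 for SCD to 0.188 for MVK. For 24 of 30 genes the interval lay within 0.25 of 0, and for 29 of 30, all but STARD4, within 0.5. These intervals are not adjusted for the number of features tested, so their widths are not the smallest changes that could be called. MVK at 0.26, INSIG2 at -0.20, IDI1 at 0.13, ABCA1 at 0.12 and ACLY at -0.09 had intervals that left out 0 and still did not pass.

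Other genes of the same pathways were taken from 6 lists of 66 genes, of which 65 were in the table and 63 were tested. In these, 6 rose and 4 fell, 15.9% of those tested, against 8.72% of all features and 13.9% of features at or above 12.7 CPM. Their median log2 change was 0.02. Of 11 tested genes of sterol uptake, transport and esters, 3 rose and none fell (unadjusted 3 and 0, DESeq2 3 and 0). These 3 are 27.3% of the list, against 4.13% of all features called higher and 5.93% at or above 12.7 CPM. NPC1, which moves cholesterol out of lysosomes, had 249.5, 250.6 and 256.7 CPM in LOC401312 and 170.0, 172.2 and 170.2 CPM in vector. These groups lay far apart, with a change of 0.56 (SE 0.04, adjusted p = 2.17e-05, edgeR) that was between 0.55 and 0.57 without any single library. GRAMD1B, which carries cholesterol from the plasma membrane to the endoplasmic reticulum, had 186, 195 and 193 CPM in LOC401312 and 157, 162 and 152 CPM in vector (change 0.28, adjusted p = 0.00273). SCARB1, the receptor for high-density lipoprotein, had 301, 295 and 281 CPM in LOC401312 and 234, 248 and 250 CPM in vector (change 0.26, adjusted p = 0.0049); on chromosome 12, it dropped out once chromosome medians were removed (0.15, adjusted p = 0.0796).

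The list of 8 other sterol synthesis genes also held TMEM97, a sterol-responsive membrane protein that is not itself a synthesis enzyme. TMEM97 fell by 0.22 on the log2 scale (SE 0.04, adjusted p = 0.00823, edgeR), with 120, 123 and 123 CPM in LOC401312 and 144, 144 and 138 CPM in vector. In the deposited FPKM values, which lay higher in LOC401312 as a whole, TMEM97 was at -0.09 (adjusted p = 0.214, limma). After these were rescaled to a level median gene it was at -0.20 (adjusted p = 0.0158, limma). It was called in 14 of 17 alternative fits. The other 7 did not pass. None of 7 genes of SREBP processing and turnover passed (unadjusted 1 higher and 0 lower, DESeq2 0), and their median change was 0.01. Of 6 LXR receptors and targets, ABCG1, a sterol exporter, fell by 0.89 (SE 0.18, adjusted p = 0.0124), with 3.18, 2.40 and 3.57 CPM in LOC401312 and 4.94, 5.94 and 6.10 CPM in vector. ABCA1, which LXR also induces, had a positive value of 0.12, and the difference between the exporters was not tested. ABCG1 lost its call without LOC401312 replicate 2 (adjusted p = 0.0532) or vector replicate 2 (0.0527) or 3 (0.0666).

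None of 19 other fatty acid synthesis genes passed edgeR (unadjusted 2 higher and 2 lower, DESeq2 1 higher and 0 lower). Of 12 genes of fatty acid activation and oxidation, 3 rose and 2 fell, 41.7% of the list, against 8.72% of all features and 13.9% at or above 12.7 CPM. CPT1A, which admits fatty acids to mitochondria, had 81.8, 88.8 and 88.7 CPM in LOC401312 and 70.0, 73.6 and 69.2 CPM in vector (change 0.29, adjusted p = 0.00626, edgeR). PPARGC1A, a coactivator of mitochondrial genes, rose by 1.18 (SE 0.26, adjusted p = 0.0198) at a low level of 4.02 ± 0.271 CPM in LOC401312 and 1.77 ± 0.652 CPM in vector (SD, n = 3 each), and kept its call only without vector replicate 1 or 2 when libraries were left out in turn (adjusted p up to 0.0786 otherwise, without LOC401312 replicate 3). ACSL4, an acyl-CoA synthetase, rose by 0.19 (adjusted p = 0.0201), a call that ended without LOC401312 replicate 2 (0.0946) or 3 (0.0795) or vector replicate 2 (0.0639) or 3 (0.0763). ACSL3, another acyl-CoA synthetase, and HADHA, a subunit of the mitochondrial oxidation complex, fell by 0.24 (adjusted p = 0.0105) and 0.20 (adjusted p = 0.0116). Both lie on chromosome 2, and with chromosome medians removed they were at -0.01 (adjusted p = 0.942) and 0.03 (adjusted p = 0.748). ACSL3 lost its call without LOC401312 replicate 1 (0.0542) or vector replicate 3 (0.0521), and HADHA without LOC401312 replicate 2 (0.057) or 3 (0.0567).

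**Figure D4:**
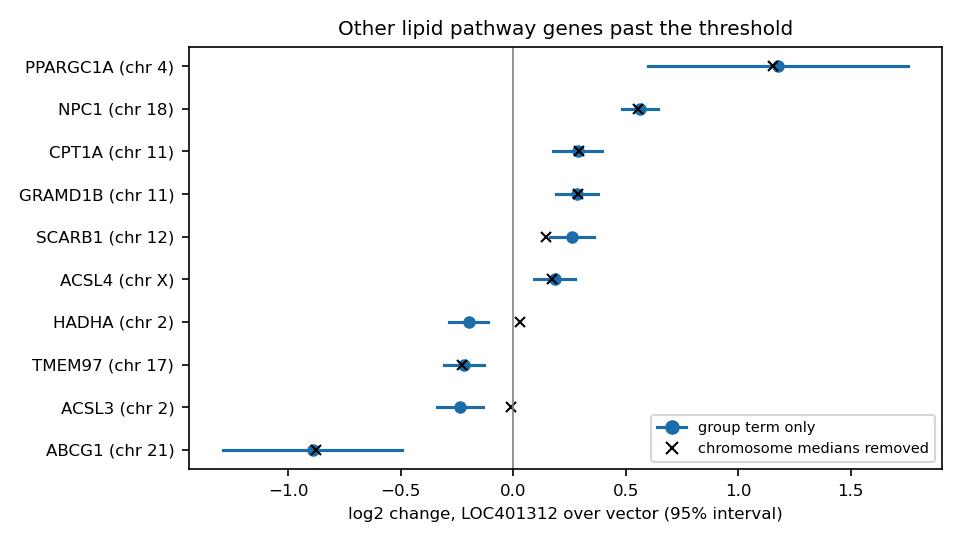
Log2 change, LOC401312 over vector (x axis), with 95% intervals as lines, of the 10 pathway genes outside the set of 30 that passed the threshold, with their chromosomes. Crosses show the change with chromosome medians removed, and those of the chromosome 2 genes ACSL3 and HADHA lie at -0.01 and 0.03.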

How the data were processed

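The authors deposited 1 table with raw counts, 1 column of whole numbers per library and no normalization, and with FPKM values. The file headers name the FPKM columns but not the library totals or lengths behind them. In limma on log2(FPKM + 0.1) the median log2 change over the features tested was 0.12. With edgeR on counts scaled by their totals it was 0.02. The submitters' processing notes name cutadapt 1.9, FastQC and the build GRCh38 (hg38). Aligner, counter, annotation release and strand setting: not given in the sources used here. The labels do not state separate cultures for the libraries. The p-values therefore reflect spread among these 6 libraries alone, possibly technical.

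Counts were tested over the whole table with edgeR 4.0.16 (quasi-likelihood, TMM scaling, filterByExpr, group as the only term) in R 4.3.3, with a threshold of 0.05 on Benjamini-Hochberg adjusted p. All 30 genes passed the filter on low counts. The biological coefficient of variation was 17%. Each standard error was derived from the log2 change and its F statistic, and 95% intervals use the fit's degrees of freedom. CPM use TMM-scaled totals. Libraries of 1 group differed beyond counting noise in all pairs (13.96 to 23.15 chi-square units per degree of freedom), so none was treated as 1 library deposited more than once; this does not show that they are biological replicates. Alternatives were other scalings and filters, DESeq2 1.42.0, limma 3.58.1 on log2(FPKM + 0.1) or log2(FPKM + 1), chromosome medians (genes of at least 4 CPM) removed from each library, the replicate number as a block, and libraries left out. The code was tested on simulated data. The 30 genes, the lists and the alternatives were chosen with earlier results of these data known. All 30 genes and every other listed gene past the threshold are named; promoter motifs and overlapping genes were chosen after values were seen. Some genes of these pathways are not analysed here.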

Additional observations from a re-analysis of the deposited data

How the results depend on the processing

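Over the 30 genes and 17 alternative fits, 472 comparisons kept their call or stayed uncalled, 15 gained a call, 18 lost one, and in 2 a called gene changed sign. Those 2 were SCD in the deposited FPKM values, at 0.0047 with a pseudocount of 0.1 and 0.0047 with 1. Counting uncalled genes too, 12 of the 30 changed sign in each of these FPKM fits and 0 to 6 in each of the others, the most being without LOC401312 replicates 2 and 3. HADHA, outside the 30, was at 0.0298 with chromosome medians removed. STARD4 was called in 16 of 17 alternatives (0.45 to 0.63), MVD and ACSS2 in 13 each and SCD in 6. DESeq2 called 5 of the 30 higher (MVK and IDI1 added) and 1248 features higher in all. With limma on FPKM, 8 of the 30 were higher and 0 lower at a pseudocount of 0.1 (2014 and 348 features, 85.3% higher against 47.4%), and 9 and 0 at 1 (2030 and 353). The unadjusted counts were 17 higher and 0 lower at both. After rescaling to a level median gene 0 were lower (unadjusted 2). Without a filter 577 features and 0 of the 30 were lower (unadjusted 2), and with chromosome medians removed 514 features were lower. Without LOC401312 replicates 2 and 3, a fit in which the lone LOC401312 library is assumed to vary like vector, 0 of the 30 were higher or lower (unadjusted 3 and 0), with 84 features higher and 91 lower. Leaving out each library in turn, 1 to 4 of the 30 were higher, 0 to 1 lower, and 393 to 963 features were higher and 439 to 1042 lower; 1 of the 30 was higher without LOC401312 replicate 1 or 2. With the replicate number as a block, 2 of the 30 were higher (MVD at adjusted p = 0.0564) and 0 lower (SCD at 0.0997; unadjusted 1), and 509 features were higher and 579 lower. Same-numbered libraries did not deviate together (correlations -0.154, -0.032 and -0.057), so the numbers were not taken as pairs. Other causes were not tested. The 30 genes had mean counts of at least 846 per library; an effect of depth on their calls was not tested.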
